A study of Sus scrofa with 2 samples.

Results

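A CpG is a cytosine followed by guanine, and it reads the same on both strands of DNA. In mammals most CpGs are methylated on both strands, and the maintenance methyltransferase DNMT1 copies the mark onto the new strand after replication. In bisulfite sequencing an unmethylated cytosine is read as thymine and a methylated cytosine as cytosine. A thymine that is part of the animal's own DNA is therefore read like an unmethylated cytosine. The CpGs described here had 15 to 60 reads in the muscle library of 1 pig and no row, on either strand, in the library of the other pig, although at least 3 other CpGs within 500 bp were listed there. Of 9651383 autosomal CpGs listed in either library, 93439 (0.968%) met this rule. Of these, 53616 (57.4%) were listed in the high-altitude library only, called highland-only here, and 39823 in the low-altitude library only, called lowland-only. They were chosen by their read counts and by the absence of a row, so neither is a finding.

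The samples were longissimus dorsi, the long muscle of the back, of 2 female Tibetan pigs, 1 per group. The highland pig was free-ranging in Tibet, where the altitude averaged 4000 m. The lowland pig was kept under experimental conditions with ordinary daily feed on the Chengdu plain, where it averaged 500 m, and its forebears were Tibetan pigs raised in the lowland for several generations. Altitude, feeding, housing and descent differed together, and no group had a second pig, so they cannot be told apart and no difference below has a replicate error. On chromosomes 1 to 18 the highland list held 7695390 CpGs with counts that sum to 91619676, and the lowland list 7648379 CpGs with counts that sum to 87482185. A read counts once at each cytosine it covers, so these sums are not numbers of reads.

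What a missing row can mean was read from the lists. Every row had at least 5 reads on its strand and at least 1 methylated read. A single methylated read sufficed at strand depths of up to 160 reads in the highland and 172 in the lowland list. All listed rows also had a corrected p-value of the authors below 0.05. A CpG without a row may therefore have had fewer than 5 reads on each strand, no methylated read, or a result that missed the p-value limit or a filter not given in the sources used here. These cases cannot be told apart in the lists, nor can a base difference at the CpG be told apart from loss of methylation.

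The CpGs of a library that could have met the rule, called eligible, had 15 to 60 reads and at least 3 neighbours within 500 bp in the other list. The highland library had 1530533 eligible CpGs, of which 3.5% lacked a row in the lowland list. The lowland library had 1392135, of which 2.86% lacked a row in the highland list. These shares are what the rule counts, and nothing is read from them. The other 1476917 and 1352312 eligible CpGs, listed in both libraries, served as the comparison set.

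CpGs listed in 1 library only were less methylated there than the comparison set. In the highland library their median level was 71.4%, with quartiles of 44.4% and 86.7%, against 80% (64.7% and 89.5%) for eligible CpGs listed in both. In the lowland library it was 66.7% (40% and 85.7%) against 78.9% (62.5% and 88.2%). Both directions thus showed the same shift toward lower levels, with a wide spread. By class, 3870 highland-only CpGs (7.22%) were low, below 20%, against 1.51% of the comparison set. Another 28322 (52.8%) were intermediate, and 21424 (39.96%) were high, at 80% or more, against 52.1% of the comparison set. Among lowland-only CpGs, 3428 (8.61%) were low, 22141 (55.6%) intermediate and 14254 (35.8%) high, against 1.58%, 49.3% and 49.1%. Complete methylation, with all reads methylated, was about as frequent as in the comparison set, at 5.54% against 5.63% in the highland and 4.39% against 4.86% in the lowland library. The sets were not matched for depth, which bears on how often all reads are methylated.

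The share without a row fell as the level rose. Every row had at least 1 methylated read and a corrected p-value below 0.05. A CpG of low level could therefore lack a row even at the same level in both pigs. How far the listing sets this fall was not tested. Of eligible CpGs below 10% in the highland library, 23.8% had no row in the lowland list (95% Wilson interval 22.8 to 24.9). At 40 to 50% the share was 5.75%, and at 70 to 80% it was 2.50%. It did not fall further above that, with 2.75% at 80 to 90% and 2.65% at 90 to 100%. In the lowland library the corresponding shares were 22.7%, 5.001%, 1.89%, 2.14% and 2.05%. Highly methylated CpGs therefore made up a large part of the set although only a small share of them belonged to it.

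**Figure D1:**
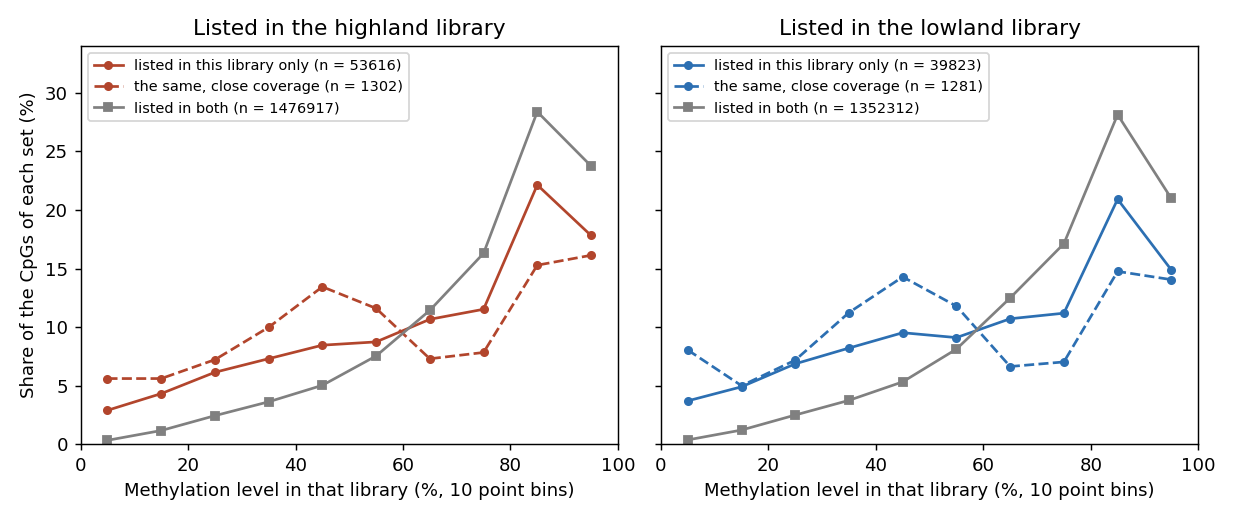
Share of CpGs (y axis, percent of each set) in 10 point bins of methylation level (x axis), for all CpGs listed in 1 library only, for those with close coverage in the other library, and for eligible CpGs listed in both. With close coverage the share is higher at 40 to 50% and above 80% than at 60 to 80%, and in the lowland library also higher below 10% than at 10 to 20%.

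Depth moved with the absence of a row. The CpGs had a median of 17 reads in both directions, against 19 in the comparison set, and 74.3% and 73.9% of them lay at 15 to 19 reads, against 50.5% and 53.8%. The share without a row fell from 5.07% at 15 to 19 reads to 1.12% at 30 to 39 reads in the highland library, and from 3.89% to 1.25% in the lowland library. It did not fall further at 40 to 60 reads, with 1.39% (219 CpGs) and 1.57% (192 CpGs). The median levels of these deepest CpGs were only 18.6% and 22.7%. In the other library, the nearest listed CpG had a median of 9 reads beside highland-only CpGs, against 15 reads beside the comparison set. Beside lowland-only CpGs it had 10 reads against 16. It was also farther away, at a median of 75 bp against 52 bp, and 70 bp against 52 bp. The loss of depth was largest beside highly methylated CpGs, whose nearest neighbour had a median of 7 and 8 reads in the other library, and smallest beside CpGs of low level, with 13 and 14 reads. Low depth in the other library thus accompanied these CpGs, and most of all those of high level.

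At the edges of the rule, 6.97% of highland CpGs with 15 reads and 8.41% of those with 14 reads had no row in the lowland list, with median levels of 73.3% and 78.6%. In the lowland library the shares were 5.34% and 6.68%, with 73.3% and 71.4%. At 60 reads, 4 of 230 and 4 of 247 CpGs had no row in the other list, and at 61 reads 7 of 218 and 3 of 186. These few CpGs had low median levels, of 9.17% and 6.67% at 60 reads and 8.20% and 11.5% at 61 reads. With exactly 3 neighbours the shares were 3.85% and 3.13%, and with 2 neighbours 4.13% and 3.37%.

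The set was therefore narrowed to CpGs with close coverage in the other library. A CpG was taken to have it when a strand with at least 10 reads at the CpG also carried at least 10 reads at another CpG within 10 bp in the other library. It held for 113934 eligible CpGs of the highland and 111153 of the lowland library. Among these, 1302 (1.14%, 95% Wilson interval 1.08 to 1.21) and 1281 (1.15%, 1.09 to 1.22) had no row in the other list. These shares were lower than the 3.5% and 2.86% over all eligible CpGs, and those of the 2 directions differed by less than their counting error. The nearest CpG in the other library then had a median of 18 reads in both directions, against 18 and 19 for the comparison set with close coverage.

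With close coverage, intermediate levels were the most frequent. Of the 1302 highland-only CpGs, 146 (11.2%) were low, 747 (57.4%) intermediate and 409 (31.4%) high, and the median level was 54.5%. The comparison set with close coverage had 1.001%, 34.02% and 64.98%, with a median of 85.2%. Of the 1281 lowland-only CpGs, 167 (13.0%) were low, 745 (58.2%) intermediate and 369 (28.8%) high, with a median of 52.6% against 84.0%. Complete methylation was here less frequent than in the comparison set with close coverage, at 4.38% against 8.09% and 3.59% against 7.28%. The levels were spread over the whole range, with fewer CpGs at 60 to 80% than on either side. Between 40 and 60% lay 326 CpGs (25.04%) and 334 (26.1%), between 60 and 80% only 197 (15.1%) and 175 (13.7%), and above that 409 and 369. The comparison set rose without such a dip, from 7.97% and 8.42% at 40 to 60% to 22.3% and 24.6% at 60 to 80%.

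With close coverage the share without a row also fell as the level rose to 70%, and was about level above that. Above 70% it was lower than over all eligible CpGs. The limit that the listing sets at low levels holds here too. In the highland library it was 17.8% below 10%, 4.59% at 40 to 50%, 2.75% at 50 to 60% and 1.06% at 60 to 70%. Above this it was level, at 0.622%, 0.554% and 0.558% in the bins from 70 to 100%. In the lowland library it was 25.4%, 4.75%, 2.63% and 0.856%, and then 0.523%, 0.529% and 0.542%. A small and even share of highly methylated CpGs was thus without a row in the other pig beside a CpG that was well read there.

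**Figure D2:**
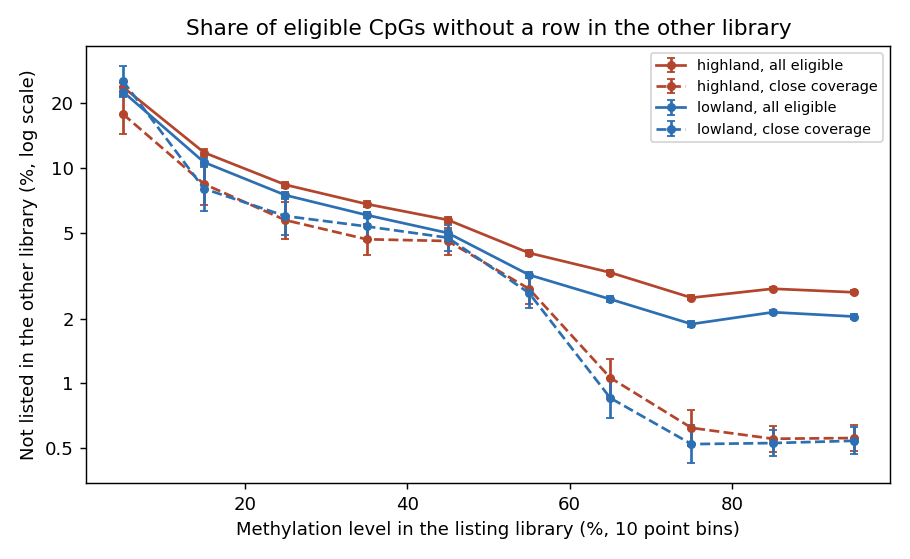
Share of eligible CpGs with no row in the other library (y axis, percent, log scale) by methylation level in the listing library (x axis, 10 point bins), with 95% Wilson intervals. Solid lines show all eligible CpGs and dashed lines those with close coverage, where the share is level at about 0.5 to 0.6% above 70%.

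Intermediate CpGs with close coverage lay further below their surroundings than those of the comparison set. The flank of a CpG was the sum of reads of the other CpGs within 500 bp that were listed in both libraries, given at least 30 reads in each. Intermediate highland-only CpGs with close coverage lay in flanks of 76.7% (median, highland pig), and their own level was lower by a median of −26.8 points. Intermediate CpGs of the comparison set lay in flanks of 71%, with −5.46 points. In the lowland direction the flanks had 73.0% in the lowland pig and the CpGs differed from them by −23.3 points, against 70.3% and −4.71 points. A level over 30 points below the flank was found in 327 of 729 (44.9%) and 259 of 720 (36.0%) of these CpGs, against 8.75% and 7.21% of the intermediate comparison set. Within the class, the own levels of these CpGs were also lower, with medians of 47.1% and 46.7%. Both comparison sets with close coverage had 66.7%. The distances to the flank were not matched for this difference in level. High CpGs with close coverage lay above their flanks, by a median of 9.02 and 9.90 points. With close coverage and a flank of at least 80%, 70 of 601 eligible CpGs at 40 to 50% in the highland library (11.6%) had no row in the lowland list, against 128 of 23155 at 90 to 100% (0.553%). In the lowland library it was 54 of 524 (10.3%) and 101 of 19750 (0.511%). With close coverage, a CpG at 40 to 50% amid methylated neighbours was thus more often without a row in the other list than a CpG at 90 to 100%.

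Strand support differed with coverage. Rows on both strands were present for 67.9% of highland-only CpGs and 65.2% of the comparison set, and for 58.7% and 59.6% in the lowland direction. With close coverage the shares were lower in both directions, at 31.1% against 54.9% and 29.2% against 50.1%. Where both strands were listed, their levels differed by a median of 12.8 points in the highland and 13.8 points in the lowland direction with close coverage, and by 10.4 and 10.9 points in the comparison set. A difference of over 50 points between strands was found in 4.198% and 4.55%, against 1.10% and 1.07%. These values rest on 405 and 374 CpGs, and the sets differ in their mix of level classes. Among intermediate CpGs with close coverage the medians were closer, at 16.5 against 15.2 points and 17.9 against 15.2 points. Over 50 points lay 6.55% against 2.95% and 7.83% against 2.64% of these.

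The named examples follow a fixed rule, restricted to CpGs listed on both strands in their own library. The nearest CpG in the other library had to lie within 25 bp. In each direction and level class, the example is the CpG whose nearest one had the most reads there, up to 60. Positions are those of the files, whose genome build was not given in the sources used here. The high-level example of the highland pig was on chromosome 6 at 175050 to 175051, with 16 of 20 reads methylated (80%, Wilson interval 58.4 to 91.9). Its strands were unequal, with 2 of 5 reads on the plus and 14 of 15 on the minus strand. The CpG at a distance of 8 bp had 25 reads and 76% in the same pig, and 47 reads and 78.7% in the lowland pig. The intermediate example lay close by, at 166909 to 166910, with 8 of 30 reads (26.7%), 22 bp from a CpG with 33.3% (45 reads) and 27.7% (47 reads). Both had deep flanks, of 3638 and 4964 reads in the highland library over 38 and 25 CpGs. The low-level example, on chromosome 2 at 100140297 to 100140298, had 3 of 51 reads methylated (5.88%), 7 bp from a CpG with 40.7% (54 reads) and 37.3% (59 reads). This CpG lies in the chromosome 2 span of unequal depth described with the clusters below. In each case the neighbour had similar levels in both pigs.

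In the lowland direction, the high-level example was on chromosome 12 at 53593957 to 53593958, with 31 of 36 reads methylated (86.1%, 71.3 to 93.9). It had 25 of 27 reads methylated on the plus and 6 of 9 on the minus strand. A CpG at 10 bp had 79.3% (58 reads) in the same pig and 83.3% (54 reads) in the highland pig. The intermediate example, on chromosome 10 at 881083 to 881084, had 17 of 41 reads methylated (41.5%), 25 bp from a CpG with 38.9% (36 reads) and 34.9% (43 reads). The low-level example, on chromosome 12 at 48945118 to 48945119, had 9 of 48 reads methylated (18.8%), 24 bp from a CpG with 25.9% (58 reads) and 26.7% (60 reads). Again the neighbours were alike in both pigs. The chromosome 12 examples also had deep flanks, of 1089 and 2121 reads in the lowland library over 17 CpGs each. The median over flanks of lowland-only CpGs was 73 reads. The examples were picked for the reads beside them, so their depth is not typical of the set. None of the 6 examples had a called flank by the test described next.

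The flanks asked whether levels at nearby CpGs listed in both libraries differed between the pigs. The rule did not use these levels. Every row had at least 1 methylated read, so a neighbour without any methylated read in 1 pig is left out of its flank. The flanks therefore cannot show a complete loss of methylation at a neighbour, and both the calls and the medians lean toward agreement. Flanks were called by the two-sided Fisher's exact test with Benjamini-Hochberg adjustment over all eligible CpGs of the direction. A call needed an adjusted p under 0.05 and 20 points or more between the pigs. Over all eligible flanks, 0.738% of 1354319 were called in the highland direction, and 0.763% of 1237711 in the lowland direction. Of flanks of highland-only CpGs, 326 of 41931 (0.777%, Wilson interval 0.698 to 0.866) were called, an interval that holds this background. Of lowland-only CpGs, 296 of 31769 (0.932%, 0.832 to 1.04) were called, an interval that lies above the background of 0.763%. The other 11685 and 8054 had too few shared reads beside them. With close coverage, 16 of 1263 (1.27%, 0.781 to 2.05) and 8 of 1231 (0.65%, 0.330 to 1.28) were called, against 0.766% and 0.813% of all eligible flanks with close coverage. The lowland interval holds this background, and the highland interval starts just above its own. With so few calls, no direction is read from these shares. The test compares 2 libraries, and flanks of nearby CpGs share reads, so the Wilson intervals are too narrow. Within a flank, 1 read counts at each CpG it covers. The counts of a flank are therefore not independent, and the adjusted p-values can be too small.

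The median flank was 75.8% in the highland and 74.4% in the lowland pig around highland-only CpGs, with a median difference (low minus high altitude) of −1.17 points against −1.06 points in the comparison set. Around lowland-only CpGs it was 75.4% and 74.5%, with −0.67 against −0.96 points. Over all CpGs of each direction the median flank was thus lower in the lowland pig, and by a larger amount where that pig lacked the row. Quartiles of the single flanks ran from −6.87 to 4.62 and from −6.22 to 5 points, far wider than this shift. By class, the medians around highland-only CpGs were −1.50 points for high, −0.99 for intermediate and −0.82 for low CpGs, against −1.20, −0.91 and −0.33 in the comparison set. Around lowland-only CpGs they were −0.13, −0.89 and −1.30 points, against −0.67, −1.28 and −2.02. The order of the directions was therefore reversed among low CpGs. The comparison set had the same reversal among low CpGs, and a larger one, so it was not particular to CpGs without a row. With close coverage, high CpGs had −2.87 (402 flanks) and 0.16 points (354 flanks), against −1.30 and −0.55 points in the comparison set with close coverage. Intermediate CpGs had −1.23 and −0.53 points, against −0.53 and −1.55.

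Most of these CpGs stood alone. Joined across gaps of up to 500 bp, 40123 of 53616 (74.8%) in the highland and 29942 of 39823 (75.2%) in the lowland direction had no other of their kind in reach. The rest formed 5899 and 4117 clusters. Of these, 4709 and 3247 were pairs, 103 and 106 held at least 5 CpGs and 4 and 14 at least 10. The levels within a pair differed by a median of 12.5 and 12.1 points, and 59.2% and 60.4% of clusters held a single level class. Neighbours of the comparison set were not measured in this way, so no trait of these CpGs is read from these values. In 66 of the 103 and 55 of the 106 clusters of at least 5, the other library listed no CpG between the first and the last.

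At short range the clustering was strong. Within 10 bp of a highland-only CpG, 59.2% of eligible CpGs (3998 of 6750 ordered pairs) also lacked a row in the lowland list. The share was 44.3% at 11 to 25 bp, 16.8% at 51 to 100 bp, 5.73% at 201 to 500 bp and 3.85% at 100 kb to 1 Mb, against 3.5% overall. In the lowland direction it was 60.1%, 45.6%, 23.0%, 16.5% and 3.11%, against 2.86%. Without 1 bin of 1 Mb on chromosome 2, from 100000001 to 101000000, which was left out after its values were seen, the lowland values were 17.1% at 51 to 100 bp and 6.56% at 201 to 500 bp. Within 10 bp of a lowland-only CpG, 1.26% of eligible highland CpGs (14 of 1111) lacked a row, against 1.60% within 10 bp of eligible CpGs listed in both. A lowland-only CpG has at least 15 lowland reads by the rule, so nothing is read from this low share. Reads span several CpGs, so neighbours share their depth. With close coverage on both sides, the share within 10 bp was 7.87% (14 of 178 ordered pairs) and 7.06% (12 of 170 ordered pairs). It was 1.14% and 1.15% over all eligible CpGs with close coverage. Close coverage requires a CpG listed within 10 bp in the other library, which limits such pairs in advance. The share within 10 bp was still above that over all of them, on few pairs.

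**Figure D3:**
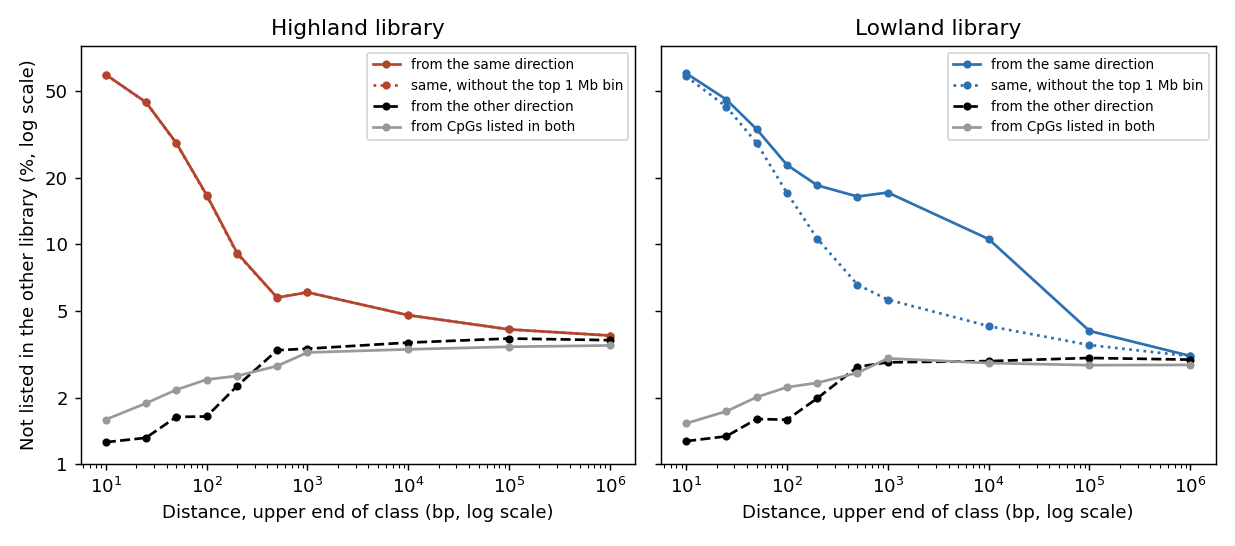
Share of eligible CpGs with no row in the other library (y axis, percent, log scale) by distance (x axis, upper end of each class in bp, log scale) from CpGs of the same direction, of the other direction or listed in both. The share falls from about 60% within 10 bp, and in the lowland library it stays high to 10 kb unless the 1 Mb bin on chromosome 2 with the highest share is left out.

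The named clusters are the 3 with the most CpGs in each direction. The largest, on chromosome 2 of the lowland library, ran from 100160978 to 100166307 and held 221 of 368 eligible CpGs without a row in the highland list. Their median level was 77.3%, from 10.5 to 100%, at a median of 26 reads, and 208 had both strands. In these 5330 bp the lowland library listed 459 CpGs at a median of 24 reads and the highland library 172 at 8 reads. At the 170 shared CpGs both pigs had similar levels, 76.4% and 77.5%, at a median of 27 reads in the lowland and 8 in the highland library. Depth, but not the level of shared CpGs, thus differed between the pigs here. The third cluster lay just beyond, from 100167072 to 100167977, with 23 of 43 eligible CpGs and shared levels of 76.6% (low altitude) and 69.8% (high altitude) over 27 CpGs.

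**Figure D4:**
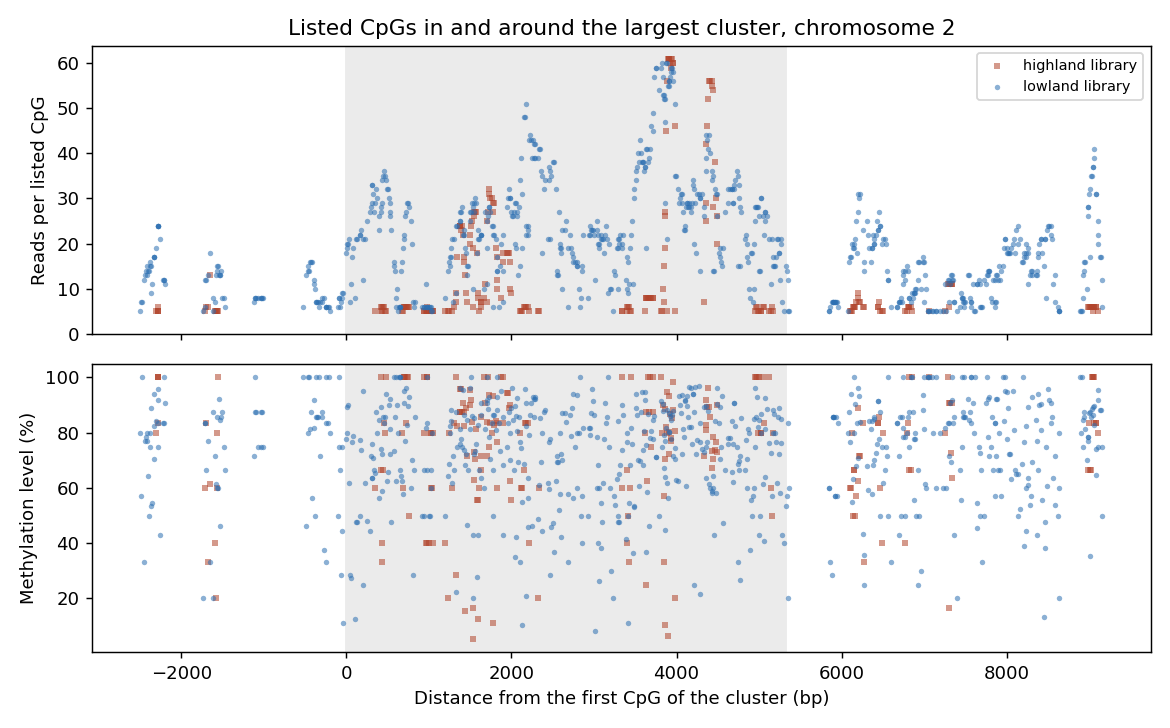
Reads (upper panel) and methylation level in percent (lower panel) of each listed CpG by distance in bp from the first CpG of the largest cluster, in the lowland (circles) and highland library (squares). The shaded 5330 bp hold 459 CpGs of the lowland and 172 of the highland library, and 75 of the highland CpGs have 5 or 6 reads while 68 have 15 or more.

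The bin held 6 clusters of at least 10 CpGs in either direction. Over their span, from 100122892 to 100170115, the lowland library listed 1479 CpGs (31.3 per kb) at a median of 16 reads and the highland library 804 (17.0 per kb) at 9 reads. Without a row in the other list were 306 of 720 eligible lowland CpGs (42.5%) and 13 of 199 highland CpGs (6.53%). The second cluster of the lowland pig was on chromosome 11, from 74834575 to 74834803. All 24 eligible CpGs in its 229 bp were without a row, and the highland library listed no CpG there. All 24 were high, from 87.5 to 100%, at 16 to 35 reads. Beside it, 5 shared CpGs within 500 bp had 82.7% in the lowland and 78.0% in the highland pig at a median of 6 reads in each. Here a whole methylated stretch was missing from 1 list, with listed CpGs on its borders.

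Clusters of the highland library were smaller. The first, on chromosome 6, ran from 33882866 to 33883691 and held 17 of 26 eligible CpGs at a median of 55.6%, from 6.67 to 87.5%, and 19 reads. The 10 shared CpGs had 50.2% (high altitude) and 48.0% (low altitude), at 19.5 and 7.5 reads. The second was on chromosome 7, from 24344978 to 24345178. Its 13 CpGs, all those eligible, had a median of 37.5%, from 5.26 to 73.1%, at 16 to 35 reads, and the lowland library listed none of the stretch. The 9 shared CpGs beside it had 67.0% (median of 63 reads) in the highland and 79.2% (24 reads) in the lowland pig. This cluster was thus less methylated than its borders, in contrast to the one on chromosome 11. The third was on chromosome 6, from 44241762 to 44242695, with 12 of 16 eligible CpGs at a median of 70.8% and shared levels of 57.0% and 61.1% over 8 CpGs.

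Along the genome the CpGs were spread over all autosomes. The share of eligible CpGs without a row was 3.63% ± 0.43 (SD over 18 chromosomes) in the highland and 2.95% ± 0.36 in the lowland library, and it was higher in the highland library on 18 of 18 chromosomes. This repeats the difference over all eligible CpGs, from which nothing is read. Chromosomes of 1 pig are not replicates. With close coverage, the shares over all chromosomes were 1.14% and 1.15%. Chromosome 17 had the highest share in both, 4.55% and 3.68%. Chromosome 13 had the lowest, 2.97% and 2.30%. In bins of 1 Mb with at least 300 eligible CpGs, the median was 3.29% over 2211 bins and 2.65% over 2145 bins, and only 9 and 7 bins were above 10%. Across 2137 bins the shares of the directions had a Spearman correlation of 0.38 (Pearson 0.346), as a description of bins that share both libraries and their depth.

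**Figure D5:**
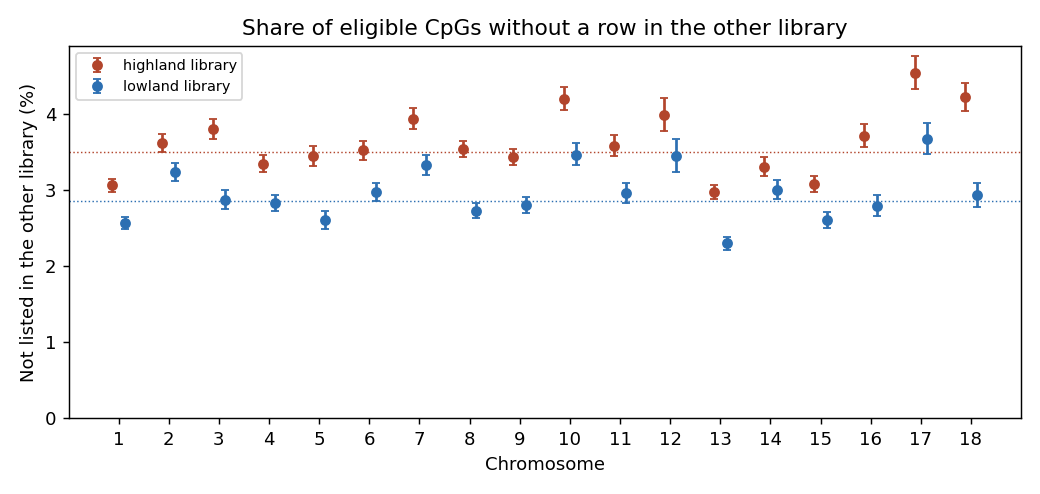
Share of eligible CpGs with no row in the other library (y axis, percent, with 95% Wilson intervals) on each autosome (x axis), with the share over all autosomes as dotted lines. The highland library lies above the lowland library on every autosome, and chromosome 17 is highest in both.

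The bin with the highest share in the highland library was on chromosome 3, from 59000001 to 60000000, with 50 of 344 eligible CpGs (14.5%) at a median level of 51.7%. The lowest was on chromosome 13, from 160000001 to 161000000, with 2 of 651 (0.307%). In the lowland library the highest was on chromosome 2, from 100000001 to 101000000, with 347 of 1593 (21.8%) at a median of 76.5%, against 3.07% in the opposite direction. The lowest was on chromosome 1, from 195000001 to 196000000, with 0 of 474, which allows a share of up to 0.633%.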

How the data were processed

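Bisulfite libraries of 2 pigs were used, 1 file each. The deposited files give, per their headers, counts of methylated and of unmethylated reads at each cytosine. They also hold the level as a fraction, and the authors' p-value and corrected p-value. The submitters' processing notes name Bismark 0.12.5. Genome build, read filters and duplicate handling were not given in the sources at hand, so positions are those of the files, with no gene annotation or sequence. Reads may be copies of 1 molecule, and intervals cover counting error only.

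Strands were joined to CpGs and their counts summed, and levels are methylated over all reads. The deposited fraction was used only as an alternative, and the deposited p-value only to describe the lists, whose corrected values were all below 0.05. The CpG rule, classes and examples were chosen with earlier results of these data known, and close coverage, the chromosome 2 bin and span and the split by flank level after seeing these values. Examples, clusters, bins and chromosomes were named by the ranks given beside them. Computation used Python 3.11.15, numpy 2.4.6, pandas 2.3.3, scipy 1.17.1 and numba 0.67.0. The search and the Fisher test were tested on simulated data. Of 50 highland flanks lowered by 20 points 10% were recovered, and of those lowered by 50 points 86%, with 4 of the unchanged among 1354319 flanks called. The simulated counts were drawn independently, so they do not give the error rate for counts that share reads.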

Additional observations from a re-analysis of the deposited data

How the results depend on the processing

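Values are given for the highland and then the lowland direction. From 20 reads upward the rule found 13806 and 10405 CpGs, with a median level of 62.5% and 57.1%, 32.8% and 28.1% at 80% or more, and 15.2% and 16.5% with another within 500 bp. With at least 5 neighbours it found 32688 and 24837 (medians 73.3% and 70%, high share 42.5% and 38.5%). With 3 neighbours within 200 bp it found 21188 and 16995 (73.3% and 70.6%, 42.9% and 39.1%). With neighbours of at least 10 reads it found 28747 and 23336 (68% and 63.2%, 37% and 33.0%). With both strands listed the lowland count was 23387 (medians 76.5% and 73.7%, high share 46.2% and 42.9%). With close coverage it found 1302 and 1281 (54.5% and 52.6%, 31.4% and 28.8%), with a median flank difference of −1.68 and −0.43 points. The deposited fraction gave a lowland median of 66.7%. From 90% upward the high share was 17.8% and 14.9%. Clustered shares were 21.8% and 21.9% at a gap of 200 bp and 29.2% and 28.1% at 1000 bp. Without the 1 Mb bin of the largest share, on chromosome 2, the lowland share was 24.2%. Flanks of 200 bp gave 184 and 180 calls (1.10% and 1.26%, against 0.939% and 0.977% of all eligible flanks) and medians of −1.42 and −0.32 points. A minimum of 30 points gave 167 and 133 calls (0.398% and 0.419%, against 0.299% and 0.311%), so both directions lay above the background under these settings. The other 17 of 70 values moved by less than counting error or, for counts, 1.5 times. Under these settings no median flank difference over all CpGs of a direction changed sign. No paired analysis was possible because each group had 1 pig. Levels rest on a median of 17 reads per CpG, so the level of a single CpG is imprecise.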
